A study of Mus musculus with 15 samples.

Results

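The cortex of sedentary SAMP8 mice was compared with that of sedentary SAMR1 mice across all measured genes and 144 gene lists. The strains were compared on 10 of the 15 arrays of the series, each from whole cortex frozen after sacrifice. Of these, 5 are labelled adult sedentary female SAMP8 and 5 adult sedentary female SAMR1. SAMR1 arrays carry replicate numbers 1 to 5 and sedentary SAMP8 arrays 6 to 10. The other group, exercised SAMP8 (replicates 11 to 15), is not compared here, and its levels are given beside the strains. Its arrays did enter the fit's estimate of spread, and so every p-value, and the choice of each gene's feature. There was no exercised SAMR1 group. All 3 groups were adult females, and the labels give neither an age in months nor a number of animals per array. If an array held pooled or repeated material, the p-values measure only the spread between these samples.

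SAMP8 and SAMR1 are inbred lines of the senescence-accelerated mouse series. SAMP8 is used as a model of early decline in learning and memory, and SAMR1 is its usual control because it ages at a more normal rate. They are separate strains and not carriers and non-carriers of 1 allele, so a difference between them can lie anywhere in the genome. Cortical tissue mixes excitatory neurons and interneurons with astrocytes, oligodendrocytes, microglia, vessels and the meninges on its surface. A level in such bulk tissue cannot tell fewer cells of a type apart from less RNA per cell.

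Levels are log2 Cy3 intensity of the brightest feature of each gene, which gave 16401 genes. Array pairs correlated at 0.9765 to 0.991 across genes, which are not independent replicates. The lower quartile of each array lay near 6.17 and its median near 7.70, and a gene under the lower quartile is called dim below. The tissue label was checked against its markers: 7 excitatory neuron markers of the cortex, among them Slc17a7, Camk2a, Tbr1 and Fezf2, had means of 8.69 to 14.39, and 0 of them passed between the strains. Of the markers fixed for striatum, thalamus and hypothalamus, choroid plexus, meninges and blood, 0 were dim on all 10 arrays. A gene "passed" where limma's adjusted p over all 16401 genes was under 0.05, and it "rose" or "fell" in SAMP8 relative to SAMR1 only where it passed. Differences are SAMP8 minus SAMR1 on the log2 scale, ± limma's standard error.

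The strain difference was spread over many genes and was mostly moderate in size. In all, 497 genes passed (3.03%), 303 of them higher (1.85%) and 194 lower in SAMP8 (1.18%). Of these, 117 differed by under 0.5, 281 by 0.5 to 1, 85 by 1 to 2 and 14 by 2 or more. The 99 genes past 2-fold were 0.604% of those tested, 53 higher and 46 lower. Over all genes the median difference was 0.019, the 10th and 90th percentiles lay at -0.25 and 0.29, and the median standard error was 0.121. The 5 SAMP8 values lay wholly above the 5 SAMR1 values in 479 genes (2.92%) and wholly below them in 270 (1.65%).

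Features of 1 gene did not always agree. Of the genes that passed, 296 had a single feature, and 201 had others. The median of the others had the same sign in 145 genes and the opposite sign in 56. Whether a strain variant lies under a feature was not tested. In 33 genes that rose, all 5 SAMR1 arrays were dim, and in 13 that fell, all 5 SAMP8 arrays were dim, so the size of those differences rests on values near an unknown floor. In the fits that left out 1 of the 15 arrays, 326 of the 497 genes passed every time, 189 higher and 137 lower. Genes named below as risen or fallen are among these 326 unless a lost call is given, while counts of 1 to 5 genes in a list can include calls that did not hold without some array.

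**Figure D1:**
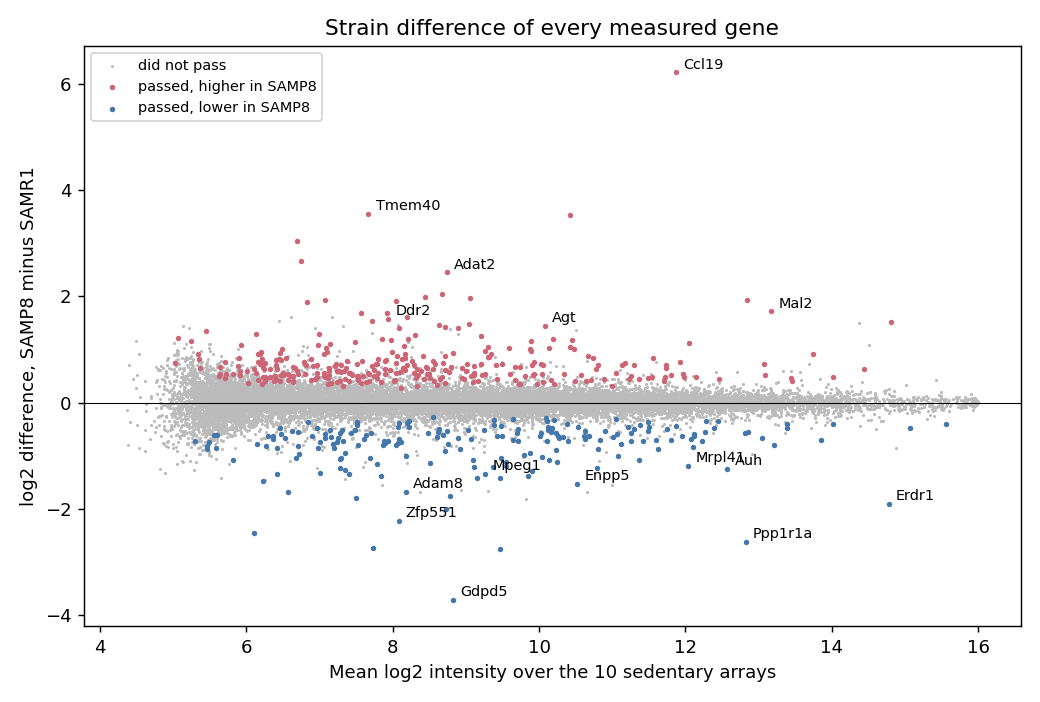
Each point is 1 of 16401 genes, with its mean log2 intensity over the 10 sedentary arrays on the x axis and its log2 difference (SAMP8 minus SAMR1) on the y axis. Red points are the 303 genes that rose and blue points the 194 that fell, and they are spread over the whole range of levels, with Ccl19 alone above 4.

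Among the largest rises were membrane receptors and secreted proteins. Mal2, a membrane protein of vesicle transport in polarized cells, read 12.44, 12.40, 12.20, 12.54 and 11.95 in SAMR1 and 13.96, 13.94, 14.04, 14.24 and 13.97 in SAMP8. The groups did not overlap, and the difference was 1.72 ± 0.11 (limma adjusted p = 1.77e-07). Ddr2, a receptor tyrosine kinase that binds fibrillar collagen, read 7.07, 6.84, 7.28, 7.06 and 7.49 in SAMR1 and 8.87, 8.55, 8.82, 8.67 and 8.73 in SAMP8. Every SAMP8 array was above every SAMR1 array, at a difference of 1.58 ± 0.11 (limma adjusted p = 3.87e-07), and its other feature gave 1.11. Itga11, an integrin subunit that also binds collagen, rose by 1.40 ± 0.23 (limma adjusted p = 0.00167).

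Agt and Serpinf1, both of the serpin fold and both secreted, rose as well. Agt is angiotensinogen, the precursor of the angiotensins, made in brain by astrocytes, and it read 9.12, 9.95, 10.11, 8.72 and 8.91 in SAMR1 and 10.75, 11.46, 10.89, 10.79 and 10.15 in SAMP8. SAMR1 replicates 2 and 3 came close to the lowest SAMP8 array, replicate 10, and the groups still did not overlap (1.44 ± 0.28, limma adjusted p = 0.00691). Serpinf1, pigment epithelium-derived factor, read 9.95, 9.95, 9.82, 9.43 and 10.17 in SAMR1 and 11.20, 11.12, 11.10, 10.76 and 11.01 in SAMP8. Its groups did not overlap (1.18 ± 0.13, limma adjusted p = 5.35e-05), and its other feature gave 1.23. Exercised SAMP8 arrays averaged 10.68 ± 0.26 for Agt and 11.02 ± 0.18 for Serpinf1 (mean ± SD, n = 5).

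Atxn1, which encodes the ataxin mutated in a spinocerebellar ataxia, read 7.07, 7.54, 7.53, 7.25 and 7.58 in SAMR1 and 8.49, 9.14, 9.23, 9.22 and 8.93 in SAMP8. The groups were separated by more than either range (1.61 ± 0.17, limma adjusted p = 2.66e-05), while its other feature gave 0.22. Bfsp2, a filament protein known from the eye lens, rose by 1.25 ± 0.19 with 1.28 on its other feature. H4c9, a histone H4 gene, rose by 1.45 ± 0.13. Ero1b, an oxidase of the endoplasmic reticulum, rose by 1.40 ± 0.10, with a median of 0.14 on its other features. Histone genes are near-identical copies that a feature may not tell apart.

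**Figure D2:**
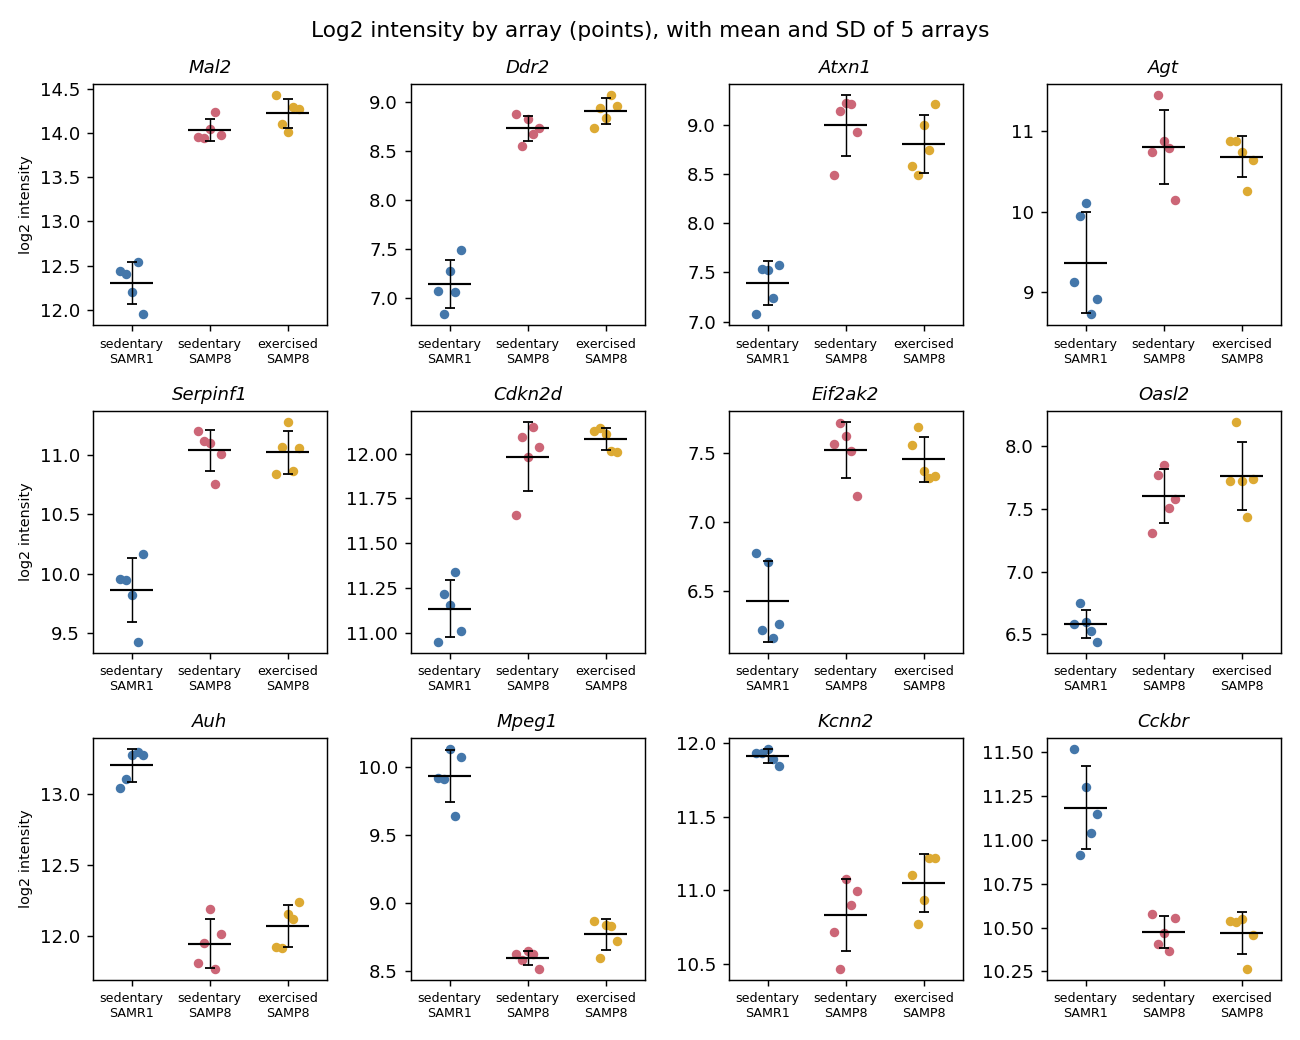
Log2 intensity of 12 genes (y axis, a scale for each gene) on the 5 arrays of each group, with the group mean (bar) and SD. In all 12 genes the sedentary SAMP8 and SAMR1 points do not overlap, and the exercised SAMP8 points lie on the SAMP8 side.

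Large falls included enzymes, proteases and immune-cell genes. Auh, an RNA-binding enzyme of leucine breakdown, read 13.04, 13.10, 13.27, 13.29 and 13.27 in SAMR1 and 11.81, 11.95, 12.20, 11.77 and 12.02 in SAMP8. Its brightest feature fell by 1.25 ± 0.10 (limma adjusted p = 9.49e-07), while the median of its other features was -0.08. Adam8, a membrane metalloprotease of leukocytes, read 8.76, 9.09, 8.86, 8.90 and 9.47 in SAMR1 and 6.57, 6.68, 8.07, 7.58 and 7.81 in SAMP8. It fell by 1.68 ± 0.29 (limma adjusted p = 0.0028), and the groups were well apart. Mpeg1, a pore-forming protein of macrophages, read 9.92, 9.91, 10.13, 9.64 and 10.07 in SAMR1 and 8.62, 8.58, 8.65, 8.63 and 8.52 in SAMP8. The SAMP8 arrays lay close together, all below SAMR1 (-1.33 ± 0.09, limma adjusted p = 2.17e-07, other feature -0.54).

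Erdr1, an erythroid differentiation regulator, fell by 1.90 ± 0.22 (limma adjusted p = 8.59e-05), with -1.57 on its other feature. SAMR1 replicates 2 and 5 of Erdr1 read 16.00, at the top of the scale, so the size of its fall is uncertain. Alox5, the enzyme that starts leukotriene synthesis, fell by 1.16 ± 0.10 (limma adjusted p = 2.32e-06), with a median of -0.58 on its other features. Several large falls were carried by 1 feature only. Dgcr8, the partner of Drosha in microRNA processing, had -1.38 ± 0.23 on the brighter of its features and -0.02 on the other. Mcur1, a regulator of mitochondrial calcium uptake, had -1.38 ± 0.12 and -0.26. Sypl2, a synaptophysin-like protein, had -1.34 ± 0.18 on its brighter feature and a value within 0.01 of 0 on the other. Pdgfd, a platelet-derived growth factor, had -1.47 ± 0.24 on a feature that was dim on all SAMP8 arrays and 0.17 on the other.

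By functional class, the highest shares of genes that rose were in immunity, glia and the borders of the brain. Of 341 immunity genes 24 rose and 6 fell (8.80% passed, against 3.03% over all genes). Of 100 glial genes 7 rose and 3 fell (10.0%), and of 117 genes of meninges, choroid plexus, ependyma, vessels and blood 8 rose and 1 fell (7.69%). Of 57 neuron markers 0 rose and 1 fell. Of 820 signalling genes 7 rose and 8 fell (1.83%). Leaving out 1 array at a time, immunity kept 17 to 27 rises and the borders 6 to 10. The glial rises numbered only 3 or 4 without SAMR1 replicate 1, 4 or 5 or SAMP8 replicate 6, 8 or 9, and the glial falls 1 without SAMR1 replicate 1 or SAMP8 replicate 9 or 10. The signalling rises numbered 3 or 4 without SAMR1 replicate 4 or SAMP8 replicate 8 or 9, and 12 without SAMR1 replicate 2.

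**Figure D3:**
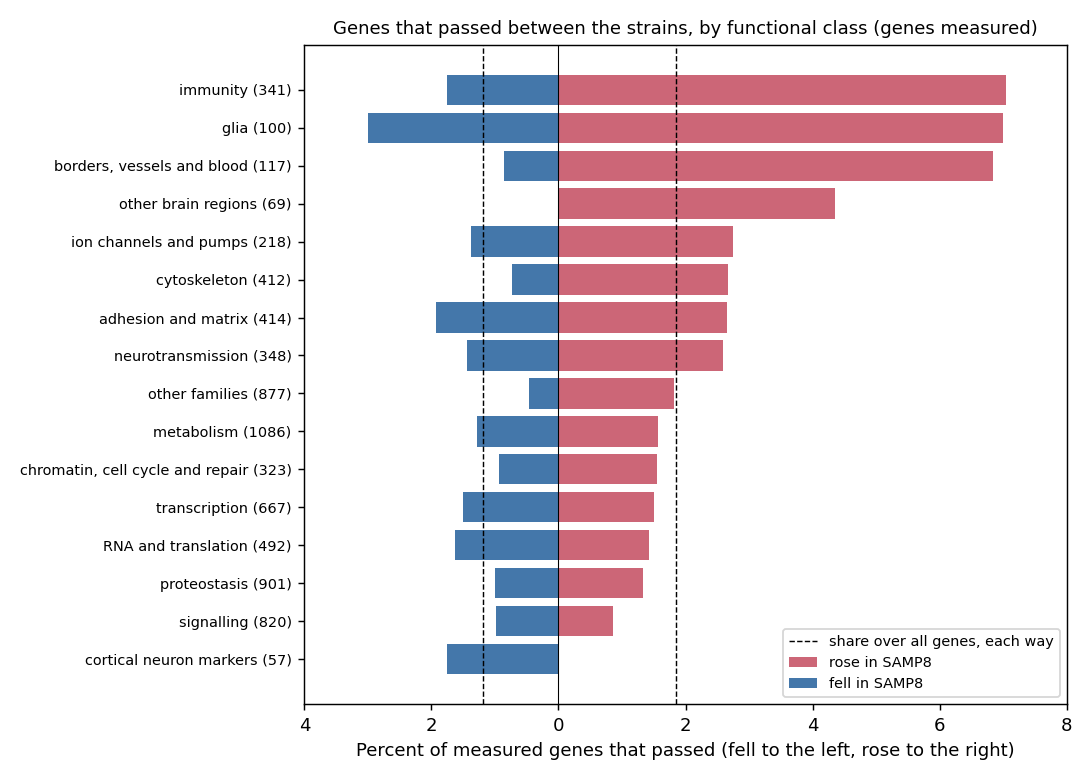
Percent of the measured genes of 16 functional classes that rose (red, to the right) or fell (blue, to the left) in SAMP8, with the number of genes in brackets. Dashed lines mark the shares over all genes, 1.85% for rises and 1.18% for falls, and immunity, glia and borders reach furthest to the right.

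The interferon-induced genes held more rises than any other of the 144 lists. Type I interferons act through Jak and Stat proteins to switch on a set of antiviral genes, such as the oligoadenylate synthetases, which sense double-stranded RNA. Of 71 such genes measured, 12 rose, 0 fell and 59 did not pass (16.9% passed, against 3.03% over all genes), and the median difference was 0.22 against 0.019. Averaged over the list, the SAMR1 arrays read 7.16, 7.10, 7.12, 7.06 and 7.09 and the SAMP8 arrays 7.39, 7.33, 7.44, 7.26 and 7.31. All SAMP8 arrays were above all SAMR1 arrays. The exercised SAMP8 arrays read 7.27, 7.55, 7.41, 7.16 and 7.29. Without SAMR1 replicate 4 the count that rose was 7, and with the mean of all features it was 9. Of the 12 genes, 7 passed in every fit that left out 1 array.

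Those 7 genes include sensors and effectors of antiviral defence. Eif2ak2, the kinase PKR that stops translation on double-stranded RNA, read 6.78, 6.22, 6.71, 6.16 and 6.26 in SAMR1 and 7.56, 7.72, 7.62, 7.51 and 7.18 in SAMP8. The groups did not overlap (1.09 ± 0.14, limma adjusted p = 0.000175), and 1 SAMR1 array was dim. Oasl2, an oligoadenylate synthetase-like protein, read 6.58, 6.75, 6.60, 6.53 and 6.44 in SAMR1 and 7.30, 7.77, 7.85, 7.50 and 7.58 in SAMP8, again without overlap (1.02 ± 0.13, limma adjusted p = 0.000185). Oas1a, an oligoadenylate synthetase, read 5.84, 6.22, 6.17, 6.00 and 5.80 in SAMR1 and 6.60, 6.32, 6.78, 6.74 and 6.77 in SAMP8. Its groups did not overlap (0.64 ± 0.11, limma adjusted p = 0.00379), and 3 SAMR1 arrays were dim.

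Oas1f, another member of that family, rose by 0.66 ± 0.14. Parp14, an ADP-ribosyltransferase, rose by 0.55 ± 0.11 on its brightest feature, with a median of 0.03 on its other features. Ifi204, a DNA-sensing protein, rose by 0.60 ± 0.11 on a feature that was dim on all SAMR1 arrays, with a median of 0.06 on the others. Ifi27l2a, a small mitochondrial protein, rose by 1.69 ± 0.30, with 1.28 on its other feature. The oligoadenylate synthetase genes, and the family of Ifi204, are close paralogs that a feature may not tell apart. The transcription factor genes of the pathway were among those that did not pass, and of 22 genes of the Jak, Stat and Socs families 0 passed.

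Bst2, named here because of its promoter, and chosen after its values were seen, encodes tetherin, which holds budding virus at the cell surface. It read 8.21, 8.16, 8.14, 7.88 and 8.23 in SAMR1 and 8.63, 8.67, 9.17, 8.57 and 8.95 in SAMP8. No overlap was seen (0.67 ± 0.15, limma adjusted p = 0.0206), but it did not pass without SAMR1 replicate 4 or SAMP8 replicate 8 or 10 (limma adjusted p 0.0619, 0.0551 and 0.0526).

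**Figure D4:**
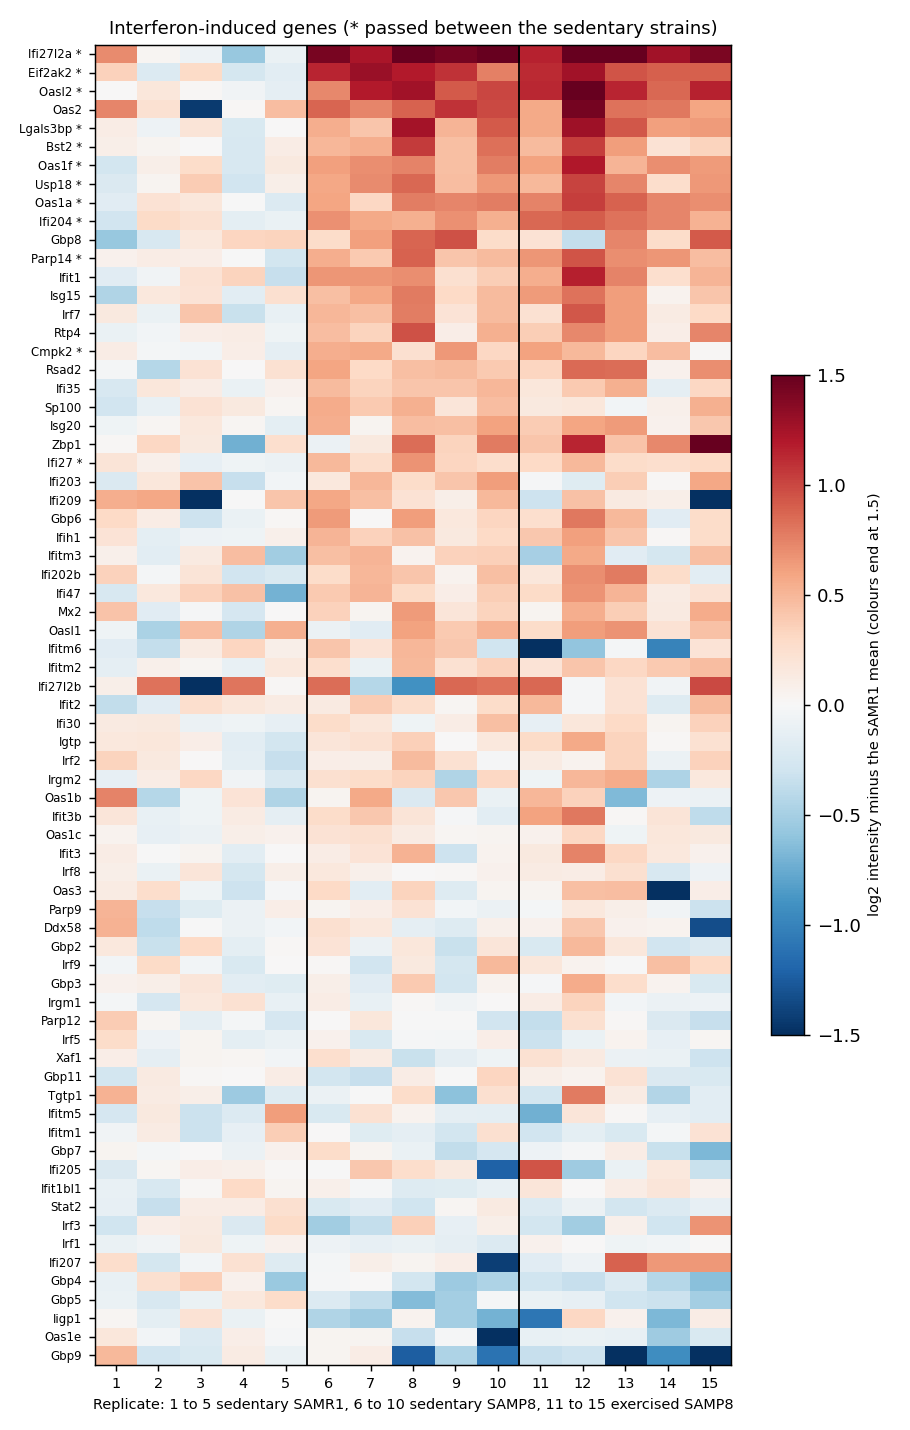
Heat map of the 71 interferon-induced genes (rows, ordered by strain difference) on the 15 arrays (columns), as log2 intensity minus the SAMR1 mean. The 12 genes marked with a star passed and sit in the upper rows, where the SAMP8 and exercised SAMP8 columns are red.

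Promoters of these genes are shown because interferon-activated factors bind a repeat of GAAA. Counting both strands of the 250 bases before each start in RefSeq's GRCm38.p6 annotation, GAAA followed after any 2 bases by another GAAA occurred in 936 of 27025 genes (3.46%). In the interferon list it occurred in 24 of the 52 genes with a promoter entry (46.2%). Of the 12 genes that rose, 7 had an entry and 2 held the motif, Oas1a and Bst2. Each has 2 overlapping matches, shown in capitals within the 150 bases before the start, written 5′ to 3′ on the minus strand. The matches begin 20 and 14 bases before the start in Oas1a and 130 and 124 bases before it in Bst2. A match is a string of letters and not evidence of binding.
Oas1a promoter, chr5:120907526-120907675: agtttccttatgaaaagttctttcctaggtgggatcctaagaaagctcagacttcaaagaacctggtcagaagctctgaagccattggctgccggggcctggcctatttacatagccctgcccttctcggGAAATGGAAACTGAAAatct
Bst2 promoter, chr8:71537473-71537622: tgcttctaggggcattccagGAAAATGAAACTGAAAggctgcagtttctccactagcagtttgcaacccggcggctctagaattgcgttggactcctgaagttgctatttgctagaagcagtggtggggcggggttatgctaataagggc

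TRIM genes, ring-finger proteins of which several restrict viruses, rose in 5 of 50 cases and fell in 0 (10.0% passed, median 0.059). Trim12a, dim on all SAMR1 arrays, rose by 2.66 ± 0.10. Trim30a, a restrainer of innate signalling, rose by 0.63 ± 0.14 from dim SAMR1 levels, with 0.47 on its other feature. Trim34a rose by 0.92 ± 0.17, with a median of -0.14 on its other features and 4 dim SAMR1 arrays. These 3 are neighbours in the genome and close paralogs. Trim36 rose by 0.50 ± 0.09, and 4 of the 5 calls held without any 1 array.

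MHC genes moved both ways. Class I molecules show peptides to killer T cells, class II molecules show them to helper T cells, and the H2-DM pair loads class II molecules. Of 25 class I genes 3 rose and 1 fell (16.0% passed, against 3.03% over all genes). Of 9 class II genes 0 rose and 2 fell (22.2%). The 2 class II falls were H2-DM genes, which were moved from the class I list after values were seen. The other 7 class II genes did not pass. H2-Bl, a class I gene that was dim in SAMR1, rose by 3.05 ± 0.22, with a median of 1.26 on its other features. Tap2, a peptide pump for class I, rose by 0.31 ± 0.07 (limma adjusted p = 0.0141), and did not pass in a fit of the 10 sedentary arrays alone. H2-Q4, a class I gene, read 10.65, 10.82, 10.89, 10.52 and 10.41 in SAMR1 and 10.02, 9.84, 10.07, 10.00 and 10.10 in SAMP8. It fell by 0.65 ± 0.13 (limma adjusted p = 0.00899), with no overlap. H2-DMb2 read 6.53, 6.51, 6.88, 6.57 and 6.56 in SAMR1 and 5.83, 6.06, 5.95, 6.01 and 6.06 in SAMP8. It fell by 0.63 ± 0.08 (limma adjusted p = 0.000195) to dim levels on all SAMP8 arrays. MHC genes are highly similar and variable between strains, so their features may not tell copies apart.

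Chemokine genes also moved both ways, while the complement genes that passed fell. Of 43 chemokines and receptors 3 rose and 1 fell (9.3% passed, against 3.03% over all genes). Those that rose were ligands: Ccl19 (6.22), Ccl21c (1.54 ± 0.11), which signals through the same receptor Ccr7, and Ccl27a (0.91 ± 0.14), a skin-homing chemokine. All 3 belong to clusters of near-identical copies. Ccl17, a ligand of Ccr4, read 8.04, 8.24, 8.60, 8.07 and 8.44 in SAMR1 and 7.36, 7.45, 7.94, 7.08 and 7.79 in SAMP8. It fell by 0.75 ± 0.16 (limma adjusted p = 0.0156), and its groups did not overlap. Of 27 complement genes 0 rose and 2 fell (7.41%): C4b, by 1.08 ± 0.15, and C2, by 0.69 ± 0.11 with -0.66 on its other feature. C4b and C2 both supply the classical pathway's convertase, and C4b has a near-identical copy. Of 53 interleukins and receptors and 33 lymphocyte genes 0 passed.

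Receptors and enzymes of myeloid cells were mixed. Clec7a, the beta-glucan receptor dectin, rose by 0.63 ± 0.13 from dim SAMR1 levels. Clec2d, a C-type lectin ligand of natural killer receptors, read 6.71, 6.40, 6.96, 6.63 and 6.39 in SAMR1 and 7.97, 7.32, 7.52, 7.50 and 7.56 in SAMP8, and its groups did not overlap (0.95 ± 0.14, limma adjusted p = 0.000689). Of 37 microglia and macrophage markers 4 rose and 0 fell (10.8% passed, against 3.03% over all genes), with 2 rises without SAMR1 replicate 5. The most secure were Slc2a5, a fructose transporter of microglia (1.97 ± 0.10), and F13a1, a coagulation factor subunit of perivascular macrophages (0.72 ± 0.11, limma adjusted p = 0.00137). The list's median was 0.074, and Cx3cr1, P2ry12 and Aif1 did not pass. Myo1f, a myosin of leukocytes, rose by 0.79 ± 0.13. Mpeg1 and Alox5, described above, and Bcl2a1b (-0.75 ± 0.15), an anti-apoptotic gene of leukocytes, fell.

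Among protease inhibitors, 3 of 43 serpins and cystatins rose and 1 fell (9.3% passed, against 3.03% over all genes). The fall did not pass in 13 of the 15 fits that left out 1 array. The rises were Serpinf1, described above, Serpina3n and Serpina1d. Serpina3n, an inhibitor known from reactive astrocytes, rose by 0.85 ± 0.11 (limma adjusted p = 0.000256). Serpina1d, an antitrypsin, rose by 0.82 ± 0.11 (limma adjusted p = 0.000222). Serpina1d belongs to a cluster of near-identical copies. Serpina3n read 7.86, 7.54, 7.88, 7.90 and 7.58 in SAMR1 and 8.48, 8.73, 8.49, 8.55 and 8.74 in SAMP8, with no overlap. Meningeal markers, given below, were also higher in SAMP8, and their part in these rises was not tested.

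Of the 7 glial genes that rose, 4 are known from reactive astrocytes. Of 31 reactive astrocyte genes 4 rose and 0 fell (12.9% passed, against 3.03% over all genes), with a median of 0.24 against 0.019. The list had 2 rises without SAMR1 replicate 4 or 5 or SAMP8 replicate 7 or 8. Gfap, the astrocyte intermediate filament, read 9.94, 9.39, 10.00, 9.36 and 9.78 in SAMR1 and 10.45, 10.47, 10.29, 10.54 and 10.30 in SAMP8. The groups did not overlap (0.72 ± 0.14, limma adjusted p = 0.00771), and the median of the other features was 0.64. Of 25 general astrocyte markers, with a median of 0.03, 1 rose and 1 fell (8.0%). The rise, of the fatty acid-binding protein gene Fabp7 (0.70 ± 0.18), did not pass in 12 of the 15 fits that left out 1 array. Ntsr2, a neurotensin receptor of astrocytes, fell by 0.48 ± 0.10 with -0.37 on its other feature. Mt3, a zinc-binding metallothionein of brain, read 10.12, 10.29, 10.65, 9.91 and 10.14 in SAMR1 and 11.25, 10.71, 11.31, 10.95 and 11.33 in SAMP8, with no overlap (0.89 ± 0.19, limma adjusted p = 0.0152).

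Oligodendrocyte and myelin markers had a median of -0.083 over 30 genes, of which 0 rose and 2 fell (6.67%), and the myelin genes Mog and Mag did not pass. Mbp, which encodes myelin basic protein, read 15.99 to 16.00 on the SAMR1 arrays, at the top of the table's scale, so a difference could not be measured. C1ql1, a synaptic organizer found in oligodendrocyte precursors and in neurons, rose by 0.72 ± 0.13 (limma adjusted p = 0.00331). Of 57 neuron markers 1 passed (1.75%, against 3.03% over all genes). Of 30 excitatory neuron and layer markers 0 rose and 1 fell, with a median of -0.036, and of 27 interneuron markers 0 passed. The 1 that fell, the mTOR inhibitor gene Deptor, had -2.76 ± 0.15 on the brighter of its features and -0.12 on the other.

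Markers of the brain's borders and of other regions had positive medians as lists. Of 28 meningeal and fibroblast markers 4 rose and 0 fell (14.3%), 27 were positive, and the median was 0.42. The list averaged 8.41, 8.50, 8.36, 8.12 and 8.62 on the SAMR1 arrays and 8.80, 8.83, 9.00, 8.68 and 8.69 on the SAMP8 arrays. All SAMP8 arrays were above all SAMR1 arrays. The 4 genes passed in every fit that left out 1 array.

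Those 4 genes were secreted factors, a matrix protein and a transporter. Bmp7, a bone morphogenetic protein, read 9.35, 9.38, 9.49, 9.13 and 9.50 in SAMR1 and 10.32, 10.51, 10.67, 10.07 and 10.31 in SAMP8. Its groups did not overlap (1.01 ± 0.14, limma adjusted p = 0.000589), and the median of its other features was 0.45. Bmp6, of the same family, rose by 0.52 ± 0.11 (limma adjusted p = 0.0114), with 0.37 on its other feature. Lum, the collagen-binding proteoglycan lumican, rose by 0.70 ± 0.14 (limma adjusted p = 0.0114). Slc22a2, an organic cation transporter, rose by 0.56 ± 0.12 (limma adjusted p = 0.0156), with 3 dim SAMR1 arrays. The other genes of the TGF-beta and BMP pathway did not pass: of 54, 2 rose and 0 fell (3.7%, against 3.03% over all genes).

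Choroid plexus markers had a median of 0.52 over 20 genes, but the arrays overlapped: the list averaged 7.73, 6.77, 6.88, 6.98 and 6.82 in SAMR1 and 7.72, 7.59, 8.09, 7.03 and 7.36 in SAMP8. SAMR1 replicate 1 was above 4 of the 5 SAMP8 arrays. Hippocampal and olfactory bulb markers averaged 8.18, 8.24, 8.16, 8.00 and 8.12 in SAMR1 and 8.48, 8.55, 9.08, 8.87 and 8.53 in SAMP8, with no overlap and a median difference of 0.47 over 25 genes. The 1 gene of them that passed was Spink8, a protease inhibitor, which rose by 1.90 ± 0.25 from 4 dim SAMR1 arrays. Thalamic and hypothalamic markers had a median of 0.35 over 24 genes, and their array means overlapped only in that SAMP8 replicate 10 lay just below SAMR1 replicate 3. Striatal markers had a median of 0.21 over 21 genes and their array means overlapped: SAMR1 replicate 1, at 10.12, lay level with the highest SAMP8 array and above the other 4.

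Activity-induced genes had a median of 0.375 over 37 genes, and 0 passed. Their array means were 10.82, 10.93, 9.54, 9.67 and 9.92 in SAMR1 and 10.61, 10.65, 10.55, 10.55 and 10.52 in SAMP8. SAMR1 replicates 1 and 2 were above every SAMP8 array and SAMR1 replicates 3 to 5 below every SAMP8 array, so the SAMR1 group spanned the SAMP8 group.

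**Figure D5:**
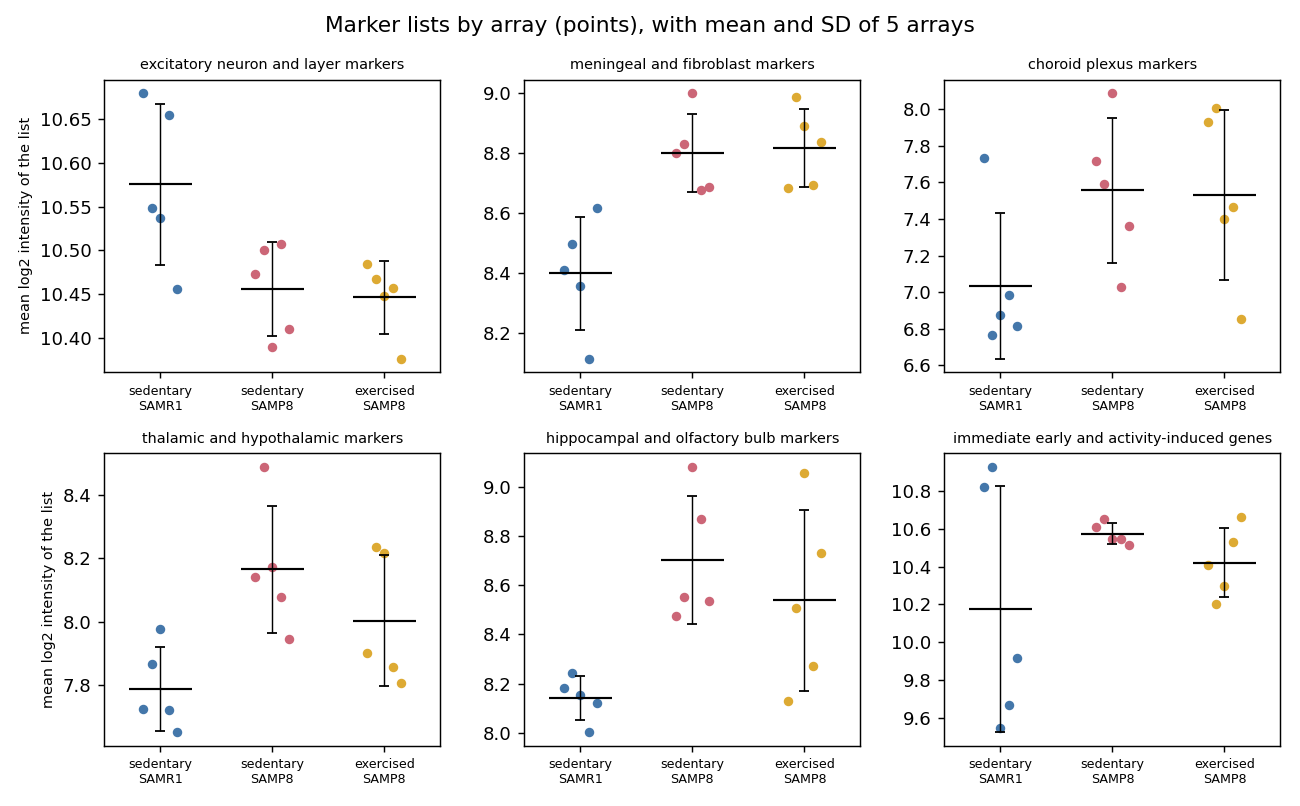
Mean log2 intensity of 6 marker lists (y axis, a scale for each list) on the 5 arrays of each group, with the group mean (bar) and SD. Meningeal and hippocampal lists are higher on all sedentary SAMP8 arrays than on all SAMR1 arrays, while the SAMR1 arrays of the activity-induced list split to both sides of SAMP8.

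Among vessel genes the changes lay in transporters and a channel. Of 39 endothelial and mural markers 2 rose and 1 fell (7.69% passed, against 3.03% over all genes), with a median of 0.077. Abcb1a, the efflux pump P-glycoprotein of the blood-brain barrier, rose by 0.91 ± 0.17 (limma adjusted p = 0.00462) from dim SAMR1 levels. Its neighbour and close paralog Abcb1b rose by 0.69 ± 0.10 on its brightest feature, with a median of 0.16 on the others. Slco1c1, the barrier's thyroxine transporter, read 10.89, 10.76, 10.74, 10.66 and 10.77 in SAMR1 and 10.42, 10.06, 9.78, 9.82 and 10.11 in SAMP8. It fell by 0.73 ± 0.12 (limma adjusted p = 0.00216), with no overlap. Kcnj8, a potassium channel subunit of pericytes, had 0.57 ± 0.11 on the brighter of its features and -0.26 on the other. Of 26 claudin and tight junction genes 0 passed.

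Neurotransmission genes passed at a share close to that over all genes: 9 of 348 rose and 5 fell (4.02%, against 3.03%). The receptors described here are acetylcholine and peptide receptors. Of 22 glutamate receptor genes and 14 GABA receptor genes 0 passed. Of 38 neuropeptide receptors 1 rose and 2 fell (7.89%). Cckbr, the brain receptor of cholecystokinin, read 11.52, 10.91, 11.30, 11.04 and 11.15 in SAMR1 and 10.58, 10.41, 10.47, 10.37 and 10.55 in SAMP8. The groups were separate (-0.71 ± 0.10, limma adjusted p = 0.000754), and the other feature gave -0.72. Tacr3, the neurokinin B receptor, rose by 0.69 ± 0.14 at levels that were dim on all SAMR1 and 2 SAMP8 arrays. Of 18 acetylcholine receptor genes 2 rose and 1 fell (16.7%), with 1 rise without SAMR1 replicate 4 or SAMP8 replicate 6, 8 or 10. Chrna4, a nicotinic subunit, had 1.18 ± 0.09 (limma adjusted p = 5.45e-07) on the brighter of its features, while the other had -1.16, the opposite sign. Chrm2, a muscarinic receptor, fell by 0.78 ± 0.16 (limma adjusted p = 0.0105) to dim levels on all SAMP8 arrays.

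Synaptic lists passed at shares below, at and above the 3.03% over all genes. Of 70 synaptic vesicle and SNARE genes 0 rose and 1 fell (1.43%), and of 20 transmitter transporters 0 passed. Of 33 genes in the postsynaptic scaffold list 0 rose and 1 fell (3.03%). Of 57 neurexin, neuroligin and synaptic adhesion genes 3 rose and 0 fell (5.26%), with 1 rise without SAMR1 replicate 1, 3 or 5 or SAMP8 replicate 8 or 9. The fall in the scaffold list was Cnih4, a cornichon family cargo protein that the list places with scaffolds. It had -1.21 ± 0.12 on the brighter of its features and -0.24 on the other.

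Of 218 ion channel and pump genes 6 rose and 3 fell (4.13%, against 3.03% over all genes), most of them potassium channels. Of 33 inward rectifier, two-pore and calcium-activated potassium channels 3 rose and 1 fell (12.1%), and of 44 voltage-gated ones 2 rose and 1 fell (6.82%). Among the 3 rises is Kcnj8, given above, which had the opposite sign on its other feature. Kcnn2, the small-conductance calcium-activated channel that shapes the afterhyperpolarization, read 11.93, 11.93, 11.96, 11.89 and 11.84 in SAMR1 and 10.72, 10.47, 11.08, 10.90 and 10.99 in SAMP8. The groups lay far apart (-1.08 ± 0.12, limma adjusted p = 3.54e-05), and the median of the other features was -0.98. Exercised SAMP8 arrays averaged 11.05 ± 0.19 (mean ± SD, n = 5). Kcng2, a silent subunit that modifies other channels, read 7.46, 7.55, 7.48, 7.44 and 7.65 in SAMR1 and 8.50, 8.65, 8.35, 8.30 and 8.51 in SAMP8. All SAMP8 arrays were higher (0.95 ± 0.10, limma adjusted p = 2.22e-05).

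Kcnj11, the pore of ATP-sensitive channels, rose by 0.45 ± 0.10 (limma adjusted p = 0.0159). Kcnk1, a two-pore leak channel, rose by 0.44 ± 0.09 (limma adjusted p = 0.011). Kcnv1, another silent subunit, had -0.80 ± 0.17 on the brighter of its features and 0.37 on the other. Clcn4, a chloride and proton exchanger of endosomes, fell by 0.56 ± 0.11 (limma adjusted p = 0.00856). Of 25 calcium channel, 13 sodium and leak channel, 28 TRP, HCN and cyclic nucleotide channel and 36 ion pump genes 0 passed.

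Most signalling families held few genes or none that passed, and the largest changes among them included regulators of a phosphatase. Protein phosphatase 1 gains its targets through regulatory subunits, some of which direct it to glycogen. Of its 40 genes 1 rose and 2 fell (7.5% passed, against 3.03% over all genes). Ppp1r1a, an inhibitor, fell by 2.61 ± 0.10, with -2.51 on its other feature. Ppp1r3g, a glycogen-targeting subunit, read 11.50, 11.63, 11.21, 11.27 and 11.41 in SAMR1 and 10.37, 10.04, 10.13, 10.32 and 9.97 in SAMP8. It fell by 1.24 ± 0.11 (limma adjusted p = 2.68e-06), with no overlap. Ppp1r3d, another glycogen-targeting subunit, read 8.97, 9.36, 8.96, 9.27 and 9.09 in SAMR1 and 9.81, 10.12, 9.84, 9.92 and 9.59 in SAMP8. It moved the opposite way (0.73 ± 0.12, limma adjusted p = 0.00143).

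Elsewhere in signalling, Eif4ebp1, the translation repressor under mTOR, fell by 0.79 ± 0.11 with -0.30 on its other feature. Dusp12, a dual-specificity phosphatase, fell by 0.71 ± 0.13 with -0.67 on its other feature. Rassf3, a Ras-association domain protein, fell by 1.23 ± 0.14 (limma adjusted p = 7.07e-05). Of 88 Rab and TBC domain genes, 48 PI3K, AKT and inositol lipid enzymes, 36 Ras and Rap genes, 52 NF-kappaB and TNF receptor genes and 16 neurotrophin genes 0 passed.

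Of 667 genes in the transcription class 20 passed (3.0%, against 3.03% over all genes). Of these 20, 14 were among the 311 zinc finger genes named Zfp. KRAB zinc finger proteins silence transposable elements and other genes, and they form large, fast-evolving families. The Zfp list was chosen by name and not by KRAB domain. Of its 311 genes 7 rose and 7 fell (4.50%, against 3.03% over all genes), with 4 rises without SAMR1 replicate 5. Zfp667 read 7.49, 7.08, 6.88, 7.16 and 6.74 in SAMR1 and 8.72, 8.76, 8.89, 8.72 and 8.72 in SAMP8. No overlap was seen (1.69 ± 0.12, limma adjusted p = 4.96e-07), and the other feature gave 0.50. Zfp429 rose by 1.94 ± 0.13 from 4 dim SAMR1 arrays. Zfp606 had 1.98 ± 0.11 on the brighter of its features and -0.31 on the other.

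Zfp551 read 9.02, 8.97, 9.50, 9.39 and 9.09 in SAMR1 and 7.39, 7.08, 6.76, 6.91 and 6.69 in SAMP8, and it fell by 2.23 ± 0.14 (limma adjusted p = 1.06e-07) with no overlap. Zfp266 fell by 0.97 ± 0.17 to levels that were dim on 2 SAMP8 arrays. Zbtb12, a BTB zinc finger gene inside the MHC, read 9.05, 9.70, 9.45, 9.32 and 9.03 in SAMR1 and 10.33, 10.26, 10.68, 10.71 and 10.42 in SAMP8. All SAMP8 arrays were above SAMR1 (1.17 ± 0.13, limma adjusted p = 4.56e-05). Of 82 homeobox genes, 50 SOX and FOX genes, 27 KLF, SP and EGR genes and 22 clock genes 0 passed.

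Taken as 1 class, chromatin, cell cycle and senescence genes passed at a share of 2.48%, against 3.03% over all genes. Cdkn2d, an inhibitor of the cell cycle kinases Cdk4 and Cdk6, read 10.95, 11.22, 11.15, 11.34 and 11.01 in SAMR1 and 11.66, 12.09, 11.98, 12.15 and 12.04 in SAMP8. The groups did not overlap (0.85 ± 0.10, limma adjusted p = 8.52e-05). Mdm2, the ubiquitin ligase of p53, rose by 0.43 ± 0.09, with a median of 0.47 on its other features. The p53 and senescence list of 32 genes, a part of that class, had 3 rises, 0 falls (9.38% passed) and a median of 0.17. In it 23 genes were positive and 9 negative, and leaving out 1 array gave 2 to 4 rises. Ehmt2, the histone H3 lysine methyltransferase G9a, rose by 0.63 ± 0.12 (limma adjusted p = 0.00682). Fancg, of the Fanconi DNA repair complex, had -1.04 ± 0.11 on the brightest of its features and a median of -0.14 on the others. Of 37 cell cycle genes and 44 histone acetylase and deacetylase genes 0 passed.

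Of 492 genes of RNA metabolism and translation 15 passed (3.05%, against 3.03% over all genes). Of these 15, 7 were in the RNA editing and modification list. RNA-modifying enzymes as a group alter transfer, ribosomal and messenger RNA after transcription, and not every listed gene need do so. Of 77 genes in the list 4 rose and 3 fell (9.09% passed, against 3.03% over all genes). Rpusd4, a pseudouridine synthase of mitochondrial RNA, read 7.67, 7.73, 7.83, 7.78 and 7.23 in SAMR1 and 9.77, 9.50, 9.62, 9.76 and 9.81 in SAMP8. No overlap was seen (2.04 ± 0.12, limma adjusted p = 3.05e-08). Trub1, a pseudouridine synthase that modifies transfer and messenger RNA, moved the opposite way (-1.76 ± 0.12, median of the other features -0.59).

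Adat2, a subunit of the transfer RNA adenosine deaminase, rose by 2.45 ± 0.07, and Fbll1, a fibrillarin-like methyltransferase, rose by 1.93 ± 0.09. Trmt61b, a mitochondrial RNA methyltransferase, fell by 0.73 ± 0.12 (limma adjusted p = 0.00198). Apobec2, a cytidine deaminase family member known from muscle, rose by 0.96 ± 0.19 from 4 dim SAMR1 arrays. Of 36 transfer RNA synthetases and 69 cytosolic ribosomal proteins 0 passed, and of 102 splicing factors 0 rose and 2 fell.

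Mitochondrial genes moved singly. Of 77 mitochondrial ribosomal proteins 1 rose and 1 fell (2.6% passed, against 3.03% over all genes). Mrpl41 read 12.54, 12.70, 12.84, 12.50 and 12.59 in SAMR1 and 11.15, 11.58, 11.62, 11.36 and 11.54 in SAMP8. It fell by 1.18 ± 0.10 (limma adjusted p = 4.25e-06), with no overlap, while Mrpl14 rose by 0.52 ± 0.08 (limma adjusted p = 0.000673). Of 97 respiratory chain and ATP synthase subunits 1 rose and 3 fell (4.12%). Among them, Ndufa11 of complex I had -0.57 ± 0.11 and -0.35 on its other feature. Cox6c of cytochrome oxidase had -0.49 ± 0.10 and Ndufa7 of complex I 0.46 ± 0.10. Of 33 TCA cycle, 44 mitochondrial carrier and 54 mitochondrial import and dynamics genes 0 passed.

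Lipid and detoxification enzymes held several of the larger changes in metabolism. Of 95 phospholipid, sphingolipid and glycerolipid enzymes 0 rose and 3 fell, a share of 3.16% that is close to that over all genes. The 3 falls held in each fit that left out 1 array: Gdpd5 (-3.71), a glycerophosphodiesterase, Enpp5 (-1.53 ± 0.10), of the nucleotide pyrophosphatase family, and Agpat5 (-0.62 ± 0.08, other feature -2.06), which makes phosphatidic acid. Acot1, an acyl-CoA thioesterase, fell by 0.52 ± 0.09 (limma adjusted p = 0.00337). Dhcr7, the last step of cholesterol synthesis, fell by 0.53 ± 0.09 with -0.23 on its other feature. Apoc1, an apolipoprotein, rose by 0.78 ± 0.15 (limma adjusted p = 0.00624).

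Gstm2, a glutathione transferase with close paralogs, rose by 0.92 ± 0.10, and Akr1c14, a steroid-reducing enzyme that was dim in SAMR1, rose by 0.67 ± 0.12. Mtr, methionine synthase, had 1.08 ± 0.15 on a feature dim in SAMR1 and 0.14 on the other. Entpd2, an ectonucleotidase, fell by 0.88 ± 0.12 (limma adjusted p = 0.000493), and Adss, an enzyme of AMP synthesis, by 0.57 ± 0.10 with -0.33 on its other feature. Of 123 glycosyltransferase and proteoglycan enzymes 0 passed.

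Among protein turnover genes the highest shares that passed were in TRIM genes and deubiquitinases. Of 59 deubiquitinases 2 rose and 3 fell (8.47%). Uchl3, a ubiquitin hydrolase of neurons and other cells, read 10.77, 10.79, 10.80, 10.85 and 10.85 in SAMR1 and 9.62, 9.59, 9.88, 9.68 and 9.68 in SAMP8. It fell by 1.12 ± 0.08 (limma adjusted p = 5.83e-07), and Uchl4, its close paralog, fell by 1.29 ± 0.14 with -1.09 on its other feature. The 2 genes may share signal, since they are close in sequence. Usp21, a histone deubiquitinase, rose by 0.53 ± 0.08 (limma adjusted p = 0.00137).

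Dnajb14, a co-chaperone of the endoplasmic reticulum membrane, rose by 1.29 ± 0.16 (limma adjusted p = 0.000151). Dnajc5, the synaptic vesicle co-chaperone CSP alpha, had -0.71 ± 0.12 on the brightest of its features and a median of 0.26 on the others. Of 47 proteasome subunits and 37 ubiquitin-conjugating enzymes 0 passed. The 37 unfolded protein response genes had a median of 0.16 with 0 rises and 1 fall, and the 45 amyloid and tau processing genes had 1 rise and 0 falls.

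Adhesion and matrix genes moved both ways. Of 414 such genes 11 rose and 8 fell (4.59%). Nid1, the basement membrane linker nidogen, read 7.50, 7.88, 7.72, 7.56 and 7.68 in SAMR1 and 8.42, 8.10, 8.88, 8.54 and 8.11 in SAMP8, with no overlap (0.74 ± 0.13, limma adjusted p = 0.00384). Lama2, a laminin chain of the same membranes, fell by 0.58 ± 0.11 on its brightest feature, with a median of -0.44 on its other features. Among collagens Col9a2 rose by 0.79 ± 0.09 and Col11a2 fell by 1.21 ± 0.11, with -0.17 on the other feature of Col11a2. Fbln1, a fibulin of elastic matrix, rose by 0.62 ± 0.12.

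Cadherins also split: Cdh4 rose by 0.67 ± 0.11, with a median of 0.53 on its other features, and Cdh6 read 7.21, 6.89, 7.44, 7.68 and 7.79 in SAMR1 and 6.58, 6.56, 6.58, 6.59 and 6.44 in SAMP8. Cdh6 fell by 0.85 ± 0.14 (limma adjusted p = 0.0019), and its groups did not overlap. The falls in adhesion and matrix numbered 4 to 6 when any 1 array was left out. They were 5 without SAMR1 replicate 1, 2 or 4, SAMP8 replicate 7 or 9 or exercised replicate 11, and 4 without SAMR1 replicate 3, SAMP8 replicate 6 or exercised replicate 12 or 13. Meningeal markers were higher in SAMP8 beside these genes, and their part was not tested.

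Cytoskeletal genes rose in 11 of 412 cases and fell in 3 (3.4% passed, close to the 3.03% over all genes). Only 5 to 7 rises were left without SAMR1 replicate 3, 4 or 5, SAMP8 replicate 6, 7 or 8 or exercised replicate 11, 12 or 13. The falls numbered 1 without SAMR1 replicate 1 or 3 or SAMP8 replicate 6, 8 or 9. Dctn3, a dynactin subunit, rose by 1.53 ± 0.11 (limma adjusted p = 3.78e-07). Of the cilium genes, Ttc8, a subunit of the BBSome, rose by 0.62 ± 0.11 (limma adjusted p = 0.00275), and Cep63, a centrosomal protein, by 0.51 ± 0.08 with 0.09 on its other feature.

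Genes that passed often lay beside each other in the genome. Ordered by RefSeq's GRCm38.p6 table, 111 of 495 placed genes that passed (22.4%) had a neighbouring measured gene that passed too. Over all 16375 placed genes 943 (5.76%) had such a neighbour. There were 26 stretches with at least 3 genes that passed and at most 2 measured genes between them, holding 93 genes. All 6 measured genes from Rpp25l to Ccl19 passed, 5 higher and 1 lower, Dctn3 and Ccl27a among them. From Adnp2 to Nfatc1, 6 of 8 passed, Kcng2 among them, and from Atxn1 to Tpmt 5 of 9 passed, all higher. Trim34a, Trim12a and Trim30a shared a stretch, and so did Abcb1a, Abcb1b and Tmem243. Nid1 and Ero1b shared a stretch as well.

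The MHC region held rises and falls side by side. Of 105 measured genes from H2-K1 to H2-T3, 17 passed (16.2%), 9 higher and 8 lower, with a median of 0.03. Besides the MHC genes themselves it held C4b, C2, Zbtb12, Ehmt2 and Col11a2, given above. Tcf19, a transcription factor gene near the class I genes, read 8.60, 9.12, 8.77, 9.10 and 8.80 in SAMR1 and 9.72, 9.84, 9.70, 9.84 and 9.55 in SAMP8, and its groups did not overlap (0.85 ± 0.12, limma adjusted p = 0.00049). Rises and falls were interspersed along the interval.

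Many families had no gene past the test. Of the 126 lists with at least 20 measured genes, 33 had 0 that passed, and 108 had a median within 0.1 of 0. In simulated data of the same design, 46% of changes of 0.5 and 80% of changes of 1 on the log2 scale were recovered, and 4% of changes of 0.25. At an unadjusted p under 0.05, 2345 genes differed between the strains. A family without a call may therefore hold differences too small for 5 arrays a group to show.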

How the data were processed

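The deposited table held Cy3 intensity on a linear scale for 45220 features, 34479 with values, in 1 column per array. Per the labels' protocols, total RNA was amplified to Cy3-labelled cRNA from 0.5 µg and hybridised to one-colour Agilent arrays. The tool limma is named per the submitters' processing notes. The sources used here do not give its version, the background correction, the normalization or the slides. The columns had nearly the same distribution (96.2% of ranks within 0.05 on the log2 scale), so they were taken as normalized between arrays. No detection flags were used.

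Values were taken as log2 without a pseudocount. Symbols came from the platform annotation: 27968 features had 1 symbol, 38 several and 6473 none, and 27891 matched RefSeq's GRCm38.p6 gene table, used for names and neighbours only. Each gene took its feature with the highest mean, 6970 genes having several. All 15 arrays were fitted in 3 groups with limma 3.58.1 in R 4.3.3 (lmFit, eBayes, two-sided, Benjamini-Hochberg over 16401 genes, threshold 0.05). Tables were made with pandas 2.3.3 and numpy 2.4.6 in Python 3.11.15, and figures with matplotlib 3.10.9. On simulated data with 200 of 16401 genes changed, the fit called 96% of those changed by 2 in log2, 46% of those changed by 0.5, and 7 unchanged genes.

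The comparison and the 144 lists (6948 genes) were chosen with earlier results of these data known, and the H2-DM genes were moved from the class I to the class II list after values were seen. Lists were described by counts and medians, with no set test. Genes were named if among the 30 largest rises or falls with a symbol that is no clone name, or among the 6 members of a list that passed with the smallest p. Lists with none passed could give 2 members, and tissue markers were named as part of their list. Bst2 and Oas1f lie outside this rule and were chosen after their values were seen. Alternatives were another normalization, offset, feature choice, low-value filter, array set, variance prior and array weights, and leaving out each array.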

Additional observations from a re-analysis of the deposited data

Results flagged for a closer look

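Dixon's ratio, with a critical value of 0.71 for 5 arrays, was computed in both sedentary groups for each gene named with a value, and chance alone singles out about 1 in 20 groups. Of 294 such groups, 15 had an array past it. Each value below is 1 array's log2 intensity, set beside the range of the other 4.

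Apoc1 read 7.48 on SAMR1 replicate 4, below the 7.90 to 8.03 of the others. Bmp6 read 8.42 on SAMR1 replicate 5, above the 7.96 to 8.06 of the others. Bst2 read 7.88 on SAMR1 replicate 4, below the 8.13 to 8.23 of the others. Cdh4 read 9.65 on SAMR1 replicate 3, above the 9.28 to 9.37 of the others. Cdh6 read 6.44 on SAMP8 replicate 10, below the 6.56 to 6.59 of the others. Chrm2 read 5.25 on SAMP8 replicate 7, below the 5.79 to 5.93 of the others. Col9a2 read 8.33 on SAMR1 replicate 2, above the 8.08 to 8.16 of the others. Col9a2 read 9.16 on SAMP8 replicate 9, above the 8.87 to 8.91 of the others. Dnajc5 read 13.86 on SAMR1 replicate 2, below the 14.25 to 14.34 of the others. H2-DMb2 read 6.88 on SAMR1 replicate 3, above the 6.51 to 6.57 of the others. Mbp read 15.99 on SAMR1 replicate 5, below the 16.00 to 16.00 of the others. Rpusd4 read 7.22 on SAMR1 replicate 5, below the 7.67 to 7.83 of the others. Tmem243 read 6.36 on SAMP8 replicate 10, below the 6.89 to 7.03 of the others. Uchl4 read 9.67 on SAMP8 replicate 9, above the 9.07 to 9.21 of the others. Zfp667 read 8.89 on SAMP8 replicate 8, above the 8.72 to 8.76 of the others.

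The Mbp values lie at the top of the scale. None of these arrays was dropped.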

How the results depend on the processing

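With quantile normalization 482 genes passed, with median centring 480, with an offset of 32 added before the log 518, with the mean of all features 476, without the dimmest 30% of genes 477, with the 10 sedentary arrays alone 416, with a trended and robust prior 522 and with array weights 548. Rises were 56.1% to 62.1% of the calls over all alternatives, against 61.0% as reported. Leaving out 1 array gave 386 to 516 calls, 227 to 317 rises, 159 to 199 falls and 90 to 107 genes past 2-fold. These 4 counts stayed within 1.5 times their reported value under every alternative tried. Of the named genes that passed, Abcb1b, Chrna4, Dnajc5, Fabp7, Ifi204, Kcnj8, Kcnv1, Lama2, Parp14 and Trim34a did not pass with the mean of all features, Fabp7 did not pass with median centring, Tap2 did not pass with the 10 sedentary arrays alone, and Bst2 and Fabp7 did not pass without some single arrays. The cause was not tested.

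The log2 differences of these markers, which did not pass, changed sign: Camk2a (-0.05 to 0.11 leaving out 1 array, -0.00 with median centring, -0.13 with the mean of all features), Fezf2 (-0.09 to 0.05 leaving out 1 array, 0.01 with array weights), Mag (-0.16 to 0.03 leaving out 1 array), Mog (0.02 with the mean of all features) and Tbr1 (-0.19 to 0.00 leaving out 1 array). Aif1 passed with array weights (0.35, limma adjusted p = 0.0467).

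No paired analysis was possible because replicate numbers run from 1 to 15 without repeating between groups. The sources used here give no slide, scan or detection calls, so no block was fitted, and dim values have no known floor. The number of arrays limits the precision.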

Other observations

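Genes outside the families above also differed between the strains. Dct, the melanin enzyme dopachrome tautomerase, read 7.20, 6.98, 7.11, 7.14 and 6.96 in SAMR1 and 9.33, 8.84, 8.86, 9.00 and 8.98 in SAMP8. The groups did not overlap (1.92 ± 0.12, limma adjusted p = 1.45e-07), and the other feature gave 1.09. Thnsl2, a threonine synthase-like protein, read 8.13, 7.90, 8.21, 7.96 and 7.70 in SAMR1 and 6.89, 6.85, 6.90, 6.47 and 6.49 in SAMP8. It fell by 1.26 ± 0.12 (limma adjusted p = 1.25e-05), with no overlap. Plekha4, a lipid-binding adaptor, fell by 1.19 ± 0.14, with -0.41 on its other feature. Prdm16, a zinc finger regulator of cell fate, fell by 2.73 ± 0.15 to levels that were dim on 2 SAMP8 arrays, and Usf1, a helix-loop-helix factor, fell by 1.41 ± 0.15.

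Of 507 olfactory, taste and vomeronasal receptor genes 4 rose and 0 fell (0.789% passed), 2 of them without SAMR1 replicate 1 or 5 or SAMP8 replicate 7 or 8. Vmn2r29, a vomeronasal receptor dim on all SAMR1 arrays, rose by 1.30 ± 0.13 (limma adjusted p = 1.46e-05). Obp1b, an odorant-binding protein, fell by 1.35 ± 0.25 to levels that were dim on 4 SAMP8 arrays. Among 196 TMEM genes 7 rose and 2 fell (4.59%). Tmem167b, a Golgi membrane protein, rose by 1.06 ± 0.09, and Tmem243, in the stretch with Abcb1b, fell by 0.65 ± 0.13.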
